A study of Homo sapiens with 27 samples.

Results

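The regions described here are 5092 peaks of RNA recovered with Tip60 that lie on chromatin carrying acetylated H2A.Z (acH2A.Z) in HL-60 cells, an established human promyelocytic leukaemia line. They were chosen by overlap: a Tip60 RNA immunoprecipitation (RIP) peak on chromosomes 1 to 22 was taken when it shared at least 1 base with an acH2A.Z chromatin immunoprecipitation (ChIP) peak of DMSO cells and none with a peak of the H2A.Z RIP. Of 249628 Tip60 RIP peaks in all, 245708 lay on these chromosomes, 5604 of those touched acH2A.Z chromatin, and 512 of the 5604 were set aside because they also held an H2A.Z RIP peak. The overlap with acH2A.Z of DMSO cells therefore chose the regions and is given as a description only. At the edge of the rule, members at chr15:84602072-84603126, chr17:39959987-39960487 and chr21:33037076-33037576, with RIP tag counts of 10.5, 3.36 and 4.41, shared 1 base with an acH2A.Z peak. Peaks at chr1:85274301-85274801, chr1:47331510-47332010 and chr14:71003199-71003699, with tag counts of 5.0, 4.17 and 3.72, abutted one with a gap of 0 bases and were left out. All bases were shared in 2713 members (53.3%), 161 shared at most 50 bases, and 3413 peaks left out lay within 1 kb of an acH2A.Z peak.

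H2A.Z is a variant of histone H2A that is concentrated in the nucleosomes beside active gene starts. The TIP60 complex, whose catalytic subunit Tip60 is encoded by KAT5, acetylates H2A.Z and other histones, and MYC is one of the factors known to recruit it. RIP recovers RNA held by a protein, so a RIP peak on chromatin marks where the bound RNA is encoded and says nothing by itself about where the protein sits on DNA.

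The RIP libraries came from cells whose labels name no treatment. The acH2A.Z ChIP came from cells given 100 µM DRB, 0.8 µM actinomycin D (ActD) or the vehicle DMSO, and from cells labelled siMyc or siNTC. DRB is a kinase inhibitor that blocks elongation by RNA polymerase II, and ActD intercalates into DNA and stops transcription. Nascent RNA was profiled under DRB, ActD and DMSO and in untreated cells, beside total RNA of untreated cells. Untreated here means that the label names no treatment. Each group was 1 library, so no replicate error can be given, no test was made, and 95% exact binomial intervals cover counting error only. How long the cells were treated is not given in the sources used here, and the labels do not say what siNTC stands for. Of the promyelocyte markers, MPO stood at 559 CPM (expected counts scaled to the same total in each library), MYB at 251 and PRTN3 at 236 in untreated nascent RNA, while ELANE had 4 counts, the epithelial marker EPCAM had 0 and the lymphoid marker MS4A1 stood at 0.12 CPM. The nascent libraries held 12600067 to 25167597 expected counts.

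The peaks at gene starts are the ones whose DNA can be shown, since 388 promoter windows of 347 genes lay wholly inside a member. A window runs from 250 bases before to 50 after a RefSeq gene start (RefSeq, GRCh38.p14). The hexamer CACGTG, the E-box bound by MYC with MAX, was looked for in them because acH2A.Z after MYC knockdown is one of the readouts. It reads the same on both strands. CACGTG occurred in 44 of the 388 windows (11.3%, interval 8.36 to 14.9). It occurred in 10.5% of 10958 windows that lay on acH2A.Z peaks but shared no base with a member. The share was 4.61% of 1930 windows on Tip60 RIP peaks away from acH2A.Z and 7.18% of all 33725 windows. Of 1140 windows that shared at least 1 base with a member, 100 held it (8.77%, interval 7.19 to 10.6). The share was thus near that of other acH2A.Z promoters, a little above it in windows wholly inside a member and below it in the larger set. Among the 388 windows wholly inside a member, 28 of 237 (11.8%) held CACGTG where acH2A.Z was called in DRB, ActD and siMyc. Where it was called in DRB, ActD and siNTC but not in siMyc, 13 of 94 (13.8%) held the hexamer. The intervals, 8.0 to 16.6 and 7.57 to 22.5, overlap. A match is a description of the letters, not a binding site.

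Promoters of 3 kinds are printed, with CACGTG in capitals. ADAR, which encodes an RNA-editing deaminase, HNRNPUL1, which encodes an RNA-binding protein, and the long non-coding LINC00652 held the hexamer and kept a called acH2A.Z peak in DRB, ActD and siMyc.
ADAR promoter, chr1:154627948-154628247, minus strand: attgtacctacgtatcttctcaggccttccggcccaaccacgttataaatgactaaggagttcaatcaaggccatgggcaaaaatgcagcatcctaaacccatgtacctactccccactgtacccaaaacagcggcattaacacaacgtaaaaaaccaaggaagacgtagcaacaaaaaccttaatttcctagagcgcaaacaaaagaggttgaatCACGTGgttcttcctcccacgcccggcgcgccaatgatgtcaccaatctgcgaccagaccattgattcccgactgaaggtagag
HNRNPUL1 promoter, chr19:41262307-41262606, plus strand: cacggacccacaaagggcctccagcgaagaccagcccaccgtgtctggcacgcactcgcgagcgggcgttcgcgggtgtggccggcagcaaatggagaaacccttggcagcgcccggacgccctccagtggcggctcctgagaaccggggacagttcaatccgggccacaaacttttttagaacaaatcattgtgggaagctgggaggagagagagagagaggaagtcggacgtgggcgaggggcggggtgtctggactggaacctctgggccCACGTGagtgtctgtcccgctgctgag
LINC00652 promoter, chr20:18794535-18794834, minus strand: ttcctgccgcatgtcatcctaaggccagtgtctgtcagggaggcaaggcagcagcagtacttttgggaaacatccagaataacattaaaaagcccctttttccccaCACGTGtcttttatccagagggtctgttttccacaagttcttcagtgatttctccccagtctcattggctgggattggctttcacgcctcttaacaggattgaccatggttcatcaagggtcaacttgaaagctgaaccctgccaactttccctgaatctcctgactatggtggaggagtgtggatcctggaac

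VPS16, which encodes a subunit of the HOPS membrane-tethering complex, NPL, which encodes a sialic acid lyase, and the divergent transcript OSER1-DT held the hexamer and had acH2A.Z called at the member in DRB, ActD and siNTC but not in siMyc.
VPS16 promoter, chr20:2840495-2840794, plus strand: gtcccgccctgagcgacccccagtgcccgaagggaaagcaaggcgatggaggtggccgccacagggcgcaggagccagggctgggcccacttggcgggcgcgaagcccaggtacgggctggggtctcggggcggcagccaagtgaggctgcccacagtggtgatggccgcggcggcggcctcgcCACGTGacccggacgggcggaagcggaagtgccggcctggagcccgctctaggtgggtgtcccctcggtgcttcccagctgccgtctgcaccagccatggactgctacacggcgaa
NPL promoter, chr1:182789523-182789822, plus strand: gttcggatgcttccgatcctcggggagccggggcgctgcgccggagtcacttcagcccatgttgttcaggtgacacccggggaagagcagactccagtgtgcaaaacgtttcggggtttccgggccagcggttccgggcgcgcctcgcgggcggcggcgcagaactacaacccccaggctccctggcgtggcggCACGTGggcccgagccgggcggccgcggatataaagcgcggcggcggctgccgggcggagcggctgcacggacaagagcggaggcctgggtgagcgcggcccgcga
OSER1-DT promoter, chr20:44210832-44211131, plus strand: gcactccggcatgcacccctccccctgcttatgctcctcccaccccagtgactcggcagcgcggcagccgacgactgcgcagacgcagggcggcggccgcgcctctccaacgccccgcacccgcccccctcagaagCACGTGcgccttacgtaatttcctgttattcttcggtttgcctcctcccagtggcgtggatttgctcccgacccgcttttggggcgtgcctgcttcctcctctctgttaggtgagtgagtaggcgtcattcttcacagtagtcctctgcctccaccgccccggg

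PODNL1 and RASSF1, a tumour suppressor of the RAS effector family, are shown because their members had acH2A.Z called in none of DRB, ActD and siMyc. Neither window holds CACGTG.
PODNL1 promoter, chr19:13953334-13953633, minus strand: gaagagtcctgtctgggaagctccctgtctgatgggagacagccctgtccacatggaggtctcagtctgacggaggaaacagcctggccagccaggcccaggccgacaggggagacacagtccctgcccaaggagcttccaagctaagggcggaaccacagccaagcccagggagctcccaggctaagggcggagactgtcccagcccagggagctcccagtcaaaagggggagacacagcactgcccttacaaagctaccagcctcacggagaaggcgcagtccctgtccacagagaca
RASSF1 promoter, chr3:50337401-50337700, minus strand: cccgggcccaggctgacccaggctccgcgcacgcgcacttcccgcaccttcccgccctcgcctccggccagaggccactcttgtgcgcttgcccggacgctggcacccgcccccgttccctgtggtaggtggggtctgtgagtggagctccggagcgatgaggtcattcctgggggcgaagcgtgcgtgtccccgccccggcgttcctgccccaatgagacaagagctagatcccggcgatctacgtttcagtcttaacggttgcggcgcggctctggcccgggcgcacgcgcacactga
The ADAR, HNRNPUL1 and LINC00652 members had RIP tag counts of 23.5, 20.5 and 16.0, and those of VPS16, NPL and OSER1-DT had 9.89, 8.92 and 7.51. The normalized tag count is the authors' coverage value per peak, and the ChIP tag counts given for a member are those of the peaks of each list that touch the DMSO peak under it. At the ADAR peak the acH2A.Z ChIP tag counts were 504 in DRB, 616 in ActD and 652 in DMSO, and 55.7 in siMyc against 203 in siNTC. The HNRNPUL1 peak had 378 in DRB, 354 in ActD and 706 in DMSO, and 42.8 in siMyc against 550 in siNTC. LINC00652 had 291 in DRB, 326 in ActD and 385 in DMSO, and 25.5 in siMyc against 20 in siNTC. Of these 3 peaks, siMyc was below siNTC at ADAR and HNRNPUL1 and not at LINC00652. The siMyc list as a whole held 3.5% of an assumed 10000000 tags, against 39.3% in siNTC. The part of list strength in the siMyc counts, here and at members named below, was not tested. At the VPS16 peak the ChIP tag counts were 378 in DRB, 96.3 in ActD and 435 in DMSO, and siNTC had 1205 where siMyc had no peak. NPL had 427 in DRB, 110 in ActD and 169 in DMSO, and OSER1-DT 261, 262 and 418 in the same order, again with no siMyc peak, against 524 and 218 in siNTC. Of these promoters, NPL was above DMSO in DRB and VPS16 was more than 2-fold below DMSO in ActD but not in DRB. RASSF1 lies in a wide DMSO peak that kept 197 tags in DRB, 445 in ActD and 77.8 in siMyc elsewhere in its width, against 1759 in DMSO and 547 in siNTC. Its member lost the call at its own bases while the DMSO peak around it remained in part. Windows wholly inside members had a median GC content of 60.3%, against 65.7% for other acH2A.Z promoters and 50.7% for promoters on Tip60 RIP peaks away from acH2A.Z. The median ratio of observed to expected CpG was 0.80, 0.86 and 0.25 in the same 3 sets.

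The first question was whether Tip60-bound RNA falls on acH2A.Z chromatin more often than peaks placed nearby. Tip60 RIP peaks touched acH2A.Z in 2.28% of cases (interval 2.22 to 2.34), and in 2.06% (2.0 to 2.11) when every peak was moved 500 kb downstream and in 2.07% when moved 500 kb upstream. The share as found was 1.11 times the downstream share (interval 1.07 to 1.15). For acH2A.Z RIP peaks the shares were 2.34% as found and 2.02% moved downstream, 1.16 times, and for H2A.Z RIP peaks 2.18% and 1.90%, 1.15 times. The excess at acH2A.Z chromatin was thus small for all 3 antibodies. In 5 groups of equal size by Tip60 tag count, low to high, the ratio of the share as found to the moved share was 1.10, 1.13, 1.16, 1.17 and 1.01. The group with the most tags, at 10.8 and above, fell on acH2A.Z in 2.51% of cases as found and 2.49% moved. With Tip60 peaks limited to a fold over control of at least 8 the ratio was 1.07. The share as found was above the moved share on 19 of 22 chromosomes and below it on chromosomes 14, 21 and 22, and chromosome 19 had the highest share in both placements, 6.06% as found and 4.93% moved.

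**Figure D1:**
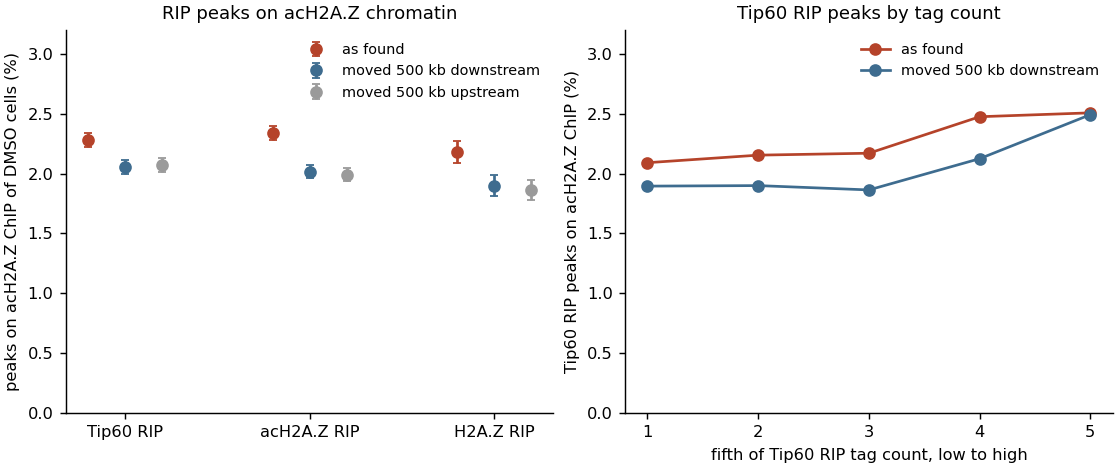
Share of RIP peaks that share at least 1 base with an acH2A.Z ChIP peak of DMSO cells, in percent, as found and after moving all peaks 500 kb; bars are 95% exact binomial intervals, which cover counting error only. On the right, Tip60 RIP peaks are split into 5 equal groups by normalized tag count: the shares as found lie above the moved ones in the lower groups (ratios 1.10 to 1.17) and meet them in the highest (1.01).

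As RIP signals the members were like the rest of the Tip60 list in tag count and width, and lower in fold over control. Their median tag count was 6.31 (quartiles 4.77 and 9.78), against 6.12 for peaks away from acH2A.Z, and both sets had a median width of 500 bases. The median fold over control was 58.1 for members and 67.4 for peaks away from acH2A.Z, and the lower quartile 22.7 and 47.5. Control tags were at their lowest value, 0.5, in 51.8% of members and 68.2% of peaks away from acH2A.Z. An acH2A.Z RIP peak was also present at 37.3% of members, against 33.1% of Tip60 RIP peaks away from acH2A.Z. The 2 sets were not filtered alike, since 8.47% of the peaks away from acH2A.Z held an H2A.Z RIP peak and members by rule held none. Peaks moved 500 kb onto acH2A.Z, and onto no H2A.Z RIP peak, had an acH2A.Z RIP peak in 22.3% of cases. The 512 peaks set aside for their H2A.Z RIP peak had a median tag count of 8.04.

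Most members lay at or in genes. A gene start stood within 1 kb of 2408 members (47.3%), 1912 (37.5%) lay in a gene away from its start and 772 (15.2%) between genes. Tip60 RIP peaks away from acH2A.Z had 2.12% at gene starts, 59.9% in genes and 37.9% between genes. Peaks moved 500 kb that landed on acH2A.Z, and on no H2A.Z RIP peak, had 44.7% at gene starts, 40.0% in genes and 15.4% between genes. The place of members among genes was therefore close to that of any peak set down on acH2A.Z chromatin. Within the acH2A.Z peak, 53.2% of members lay wholly inside it, against 49.6% of moved peaks. The distance between the centres, on a scale where 0 is the centre of the ChIP peak and 1 its edge, had a median of 0.64 for members and 0.68 for moved peaks.

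**Figure D2:**
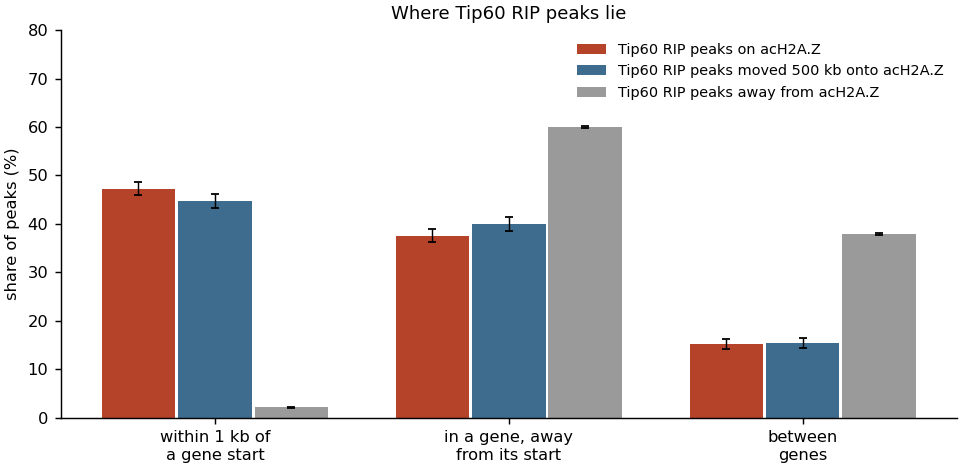
Share of Tip60 RIP peaks, in percent, within 1 kb of a RefSeq gene start, in a gene away from its start, or between genes, for the 5092 peaks on acH2A.Z, the 4659 peaks that landed on acH2A.Z after a 500 kb move, and the 240104 peaks away from acH2A.Z; bars carry 95% exact binomial intervals. The first 2 sets have nearly the same make-up, with 47.3% and 44.7% at gene starts, and the third has 2.12%.

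The acH2A.Z peaks that held members were the wide and strong ones. Of 16489 DMSO peaks, 4593 (27.9%) held a member and 25.3% held a moved peak. Peaks with a member had a median width of 2525 bases and a median tag count of 358, against 1455 bases and 116 for peaks without one. A gene start lay within 1 kb of 60.03% of peaks with a member and 45.6% of peaks without. With DMSO peaks in 5 equal groups by width, 14.8% of the narrowest group held a member and 13.4% a moved peak, and 44.6% of the widest group held a member and 39.9% a moved peak. Only 25 peaks held at least 3 members, and the highest number was 4.

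In the full lists acH2A.Z was still called at most members when transcription was blocked, but that share depended on how many peaks each list held. The DRB and ActD lists held 28552 and 30349 peaks, against 16489 in DMSO. Each list, DMSO included, was also cut to its 14264 highest-scoring peaks. Of the members still on a DMSO peak, 47.5% then had a DRB peak and 49.9% an ActD peak. In the full lists a DRB peak shared bases with 4312 members (84.7%, interval 83.7 to 85.7) and an ActD peak those of 4103 (80.6%, 79.5 to 81.7). Moved peaks on acH2A.Z gave 83.3% in DRB and 79.9% in ActD, with intervals that overlap those of the members. Both drugs and siMyc had a call at 1671 members (32.8%), and both drugs without siMyc at 1899 (37.3%). DRB alone of the drugs kept 742 members, ActD alone kept 533, and 247 had a call in neither. Members at gene starts kept the call more often than members elsewhere, with 91.8% and 78.3% in DRB and 84.4% and 77.2% in ActD.

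Counted per DMSO peak in the full lists, 97.3% of peaks with a member and 94.4% of peaks without one had a DRB peak, beside 95.2% of all 16489. For ActD the shares were 88.5% and 83.7%, beside 85.0% of all. Width moved with both having a member and being kept. Within the 5 width groups, peaks with a member had the higher ActD share in 0 and the higher DRB share in 3, and in 1 of these 3, the narrowest, the intervals did not overlap (90.6% with a member and 86.3% without). The tag count of kept peaks, as log2 of DRB over DMSO, had a median of -0.38 with a member and 0.36 without, but in the widest group it was -1.26 with and -1.22 without, and in the narrowest 1.48 with and 1.64 without. In DRB the ratio thus fell with width. DMSO sets both the width and the denominator, so the 2 are not independent, and how far that shapes the ratios was not tested. For ActD the medians were -0.63 with a member and -0.43 without. From narrow to wide they were 0.29, -0.31, -0.91, -0.90 and -0.56 with a member and 0.43, -0.32, -0.75, -0.74 and -0.46 without.

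In the full lists acH2A.Z was called at fewer members in the knockdown pair than in DRB or ActD. A siMyc peak lay on 1916 members (37.6%, interval 36.3 to 39.0) and a siNTC peak on 3105 (60.98%, 59.6 to 62.3). Moved peaks had 31.9% (30.6 to 33.3) in siMyc and 57.7% (56.3 to 59.2) in siNTC, so the members lay above them in both lists with intervals that do not overlap. Of the 3105 members with a siNTC peak, 1643 (52.9%) also had a siMyc peak, against 45.6% of moved peaks with one and 48.6% of all 16908 siNTC peaks. Another 273 members had a siMyc peak without a siNTC peak. The siMyc list was the weakest: its peaks held 3.5% of the assumed 10000000 tags, against 39.3% in siNTC, 52.6% in DRB, 52.1% in ActD and 64.0% in DMSO, and its tags had been scaled in another way. With every acH2A.Z ChIP list limited to a fold over control of at least 8, 4922 members were left. Of these, 8.39% had a siMyc peak and 31.3% a siNTC peak. Each list, DMSO included, was also cut to the same number of highest-scoring peaks. Of the members still on a DMSO peak, 37.8% then had a siMyc peak and 56.0% a siNTC peak. The shares in DRB and ActD were 47.5% and 49.9%, so siMyc stayed below both drugs and siNTC lay above them. The part of list strength in the siMyc share was not tested.

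Per DMSO peak, siMyc had a call at 59.5% of peaks with a member and 43.4% of peaks without one, beside 47.9% of all, and siNTC at 82.7% and 68.2%, beside 72.3% of all. In siMyc the peaks with a member were called more often in all 5 width groups, and in 3 of them the intervals did not overlap. From the narrowest to the widest group, the siMyc shares with a member were 24.6%, 42.4%, 53.3%, 67.3% and 75.2%. Peaks without a member had 19.3%, 32.9%, 48.0%, 59.4% and 71.9%. The siNTC shares with a member were also higher in 5 of 5 groups, but with overlapping intervals in each. Whether the siMyc difference exceeds the siNTC difference was not tested. Within each width group the peaks with a member also had the higher median DMSO tag count. It was 25.8 against 25.3 in the narrowest group and 1022 against 894 in the widest. The part of DMSO peak strength in these shares was not tested. On each of the 22 chromosomes, without regard to width, the siMyc share was higher among peaks with a member.

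**Figure D3:**
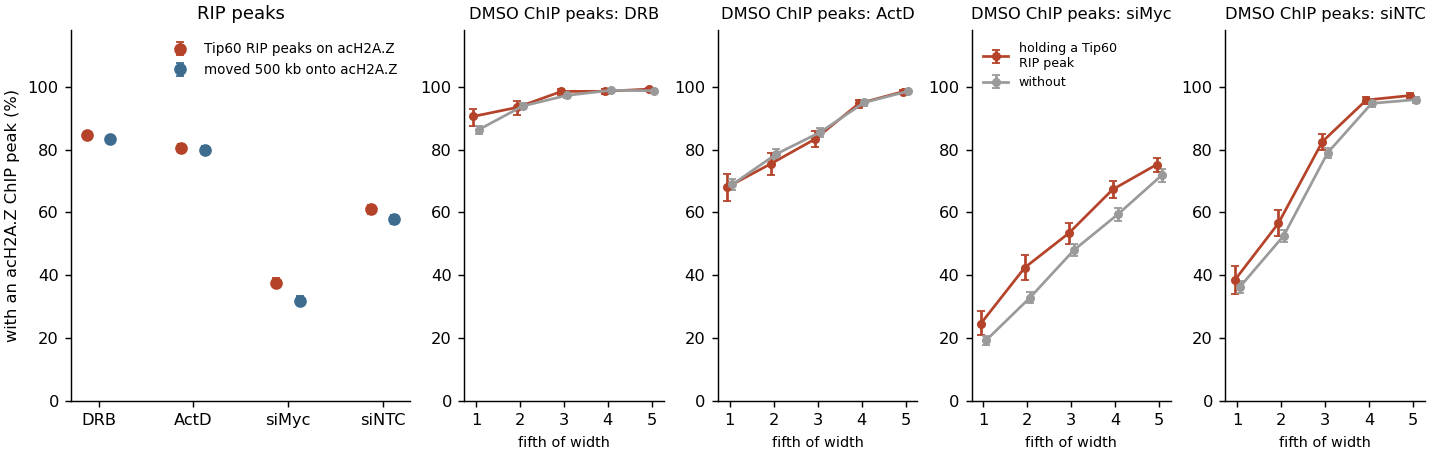
Left, share of Tip60 RIP peaks on acH2A.Z, and of Tip60 RIP peaks moved 500 kb onto acH2A.Z, that share a base with an acH2A.Z ChIP peak of each list, in percent. Right, share of DMSO acH2A.Z ChIP peaks called again in each list, in 5 equal groups by width, narrow to wide, for peaks that hold a Tip60 RIP peak and peaks that do not; bars are 95% exact binomial intervals. The 2 lines run together in ActD and, beyond the narrowest group, in DRB. They stand apart in siMyc, where 3 of 5 pairs of intervals do not overlap. In siNTC the points with a Tip60 RIP peak are higher with overlapping intervals. DMSO tag counts were not matched within the width groups.

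The H2A.Z antibody gave few peaks at members. Its ChIP peaks lay on 11.02% of members in DRB, 4.56% in ActD and 4.52% in DMSO, and on 13.9% in siMyc and 6.25% in siNTC. Moved peaks had 10.1% in DRB and 4.25% in both ActD and DMSO, and 11.7% in siMyc and 5.84% in siNTC. Tip60 RIP peaks away from acH2A.Z had 0.14% in DRB, 1.46% in ActD and 0.019% in DMSO, and 0.52% in siMyc and 0.36% in siNTC. DRB was thus above DMSO, and siMyc above siNTC, in each of these sets of peaks. The part of the number of peaks in each H2A.Z list was not tested.

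The member with the most Tip60 RIP tags lay in CCDC26, a long non-coding RNA gene near MYC, at chr8:129660550-129666887 with a tag count of 178. The 5 members with most RIP tags, in CCDC26, NSMCE2, TCHH, LIX1L and BCL2, were also high in the control, with 122 to 241 control tags and folds of 4.1 to 6.56, against a median of 0.5 control tags and a fold of 58.1 over all members. They thus lay close to the lowest fold in the list, 4. At CCDC26 the acH2A.Z ChIP tag counts were 6169 in DRB, 766 in ActD and 494 in DMSO, and 366 in siMyc against 117 in siNTC, so every list had a peak there and DRB had the most tags. The second lay in NSMCE2, which encodes a SUMO ligase, at chr8:125340237-125346438 with a RIP tag count of 144. There the ChIP tags were 64.5 in DRB and 91.8 in DMSO, and the other 3 lists had no peak. The third lay inside TCHH, which encodes the hair follicle protein trichohyalin, at chr1:152109685-152113332, with a RIP tag count of 130. Its ChIP tags were 516 in DRB and 265 in DMSO, and 154 in siMyc against 359 in siNTC, while an ActD peak lay on the member but outside the DMSO peak.

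LIX1L (RIP tag count 92.4) and BCL2 (89.6), the founding inhibitor of apoptosis, followed. At BCL2 (chr18:63198368-63198868) the ChIP tags of the DMSO peak were 98.8 in DRB, 110 in ActD and 196 in DMSO, and 15.7 in siMyc against 11 in siNTC. Both transcription blockers were below DMSO there. Other members of high tag count lay between genes on chromosome 2, in S100A13 and S100A14, in GNB5 and in FAM157A, with RIP tag counts of 59.5 to 68.8 and folds of 15.6 to 385 over control. At the S100A13 member the ChIP peak was weak, with 49.1 tags in DRB and 25.8 in DMSO.

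Among the 239 members with acH2A.Z called in none of DRB, ActD and siMyc, that with the most RIP tags (54.0, a fold of 9.02 over control) lay in AHRR, which encodes a repressor of the aryl hydrocarbon receptor, at chr5:344254-346076. Its ChIP peak had 358 tags in DMSO and 377 in siNTC and no peak in the other 3 lists. The next lay between genes at chr17:82366940-82368934 (33.3 RIP tags), in SLC6A16 (28.9), in GSE1 (23.8) and between genes at chr11:47379414-47380635 (23.7). At the first 3 of these 4 the DMSO ChIP peak was weak, with 21.8, 26 and 27 tags. The SLC6A16 peak, with 26 in DMSO, had 50.6 tags in DRB outside the member. At the last of the 4 the DMSO peak had 231 tags, with 52.2 in DRB and 39.0 in ActD outside the member.

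**Figure D4:**
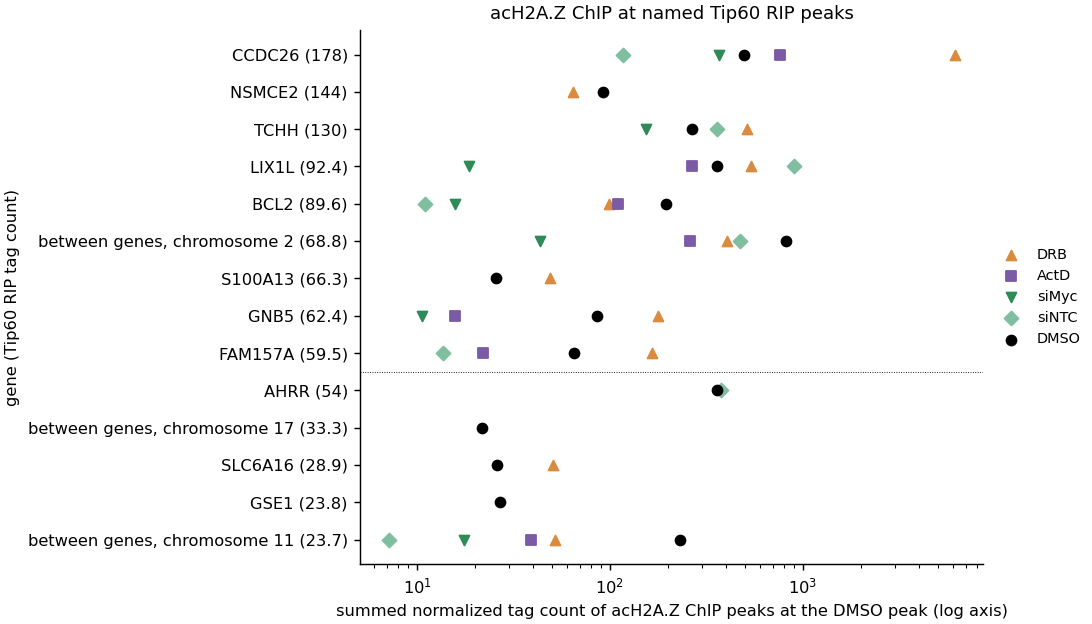
Normalized acH2A.Z ChIP tag counts, on a log axis, at the DMSO peak under Tip60 RIP peaks of highest tag count (above the dotted line) and under the 5 of highest tag count with acH2A.Z called in none of DRB, ActD and siMyc at the RIP peak (below it). Each row is a gene or place with its Tip60 RIP tag count, each symbol a list, and a missing symbol means that no peak of that list touches the DMSO peak; CCDC26 stands out with 6169 tags in DRB against 494 in DMSO.

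Members fell in or at the start of 4792 RefSeq genes, of which 3692 are protein-coding and 992 long non-coding. They are 31.3% of the 15305 genes with any acH2A.Z ChIP peak in DMSO cells. Of these hosts 35.7% were also hosts of a moved peak, which is 39.3% of the moved peaks' hosts. Most hosts had a single member in their span (3584 genes), 432 had at least 2 and 3 had 5. Most hosts were transcribed genes, as were hosts of moved peaks: 3293 of the 4191 found in the RNA tables (78.6%) passed the filter of a mean of 1 CPM, against 78.2% of hosts of moved peaks, 68.9% of other genes with acH2A.Z and 9.82% of genes that held only Tip60 RIP peaks away from acH2A.Z. The last group was thus mostly near the detection limit in nascent RNA. Per kb of transcript, the median untreated nascent level of measured hosts was 10.6 CPM, against 8.44 for other acH2A.Z genes, 11.2 for hosts of moved peaks and 6.92 for all measured genes. Hosts of members lay above other acH2A.Z genes but not above hosts of moved peaks. Span moved with being a host: in 5 equal groups of measured acH2A.Z genes by span, the shortest held 30.3% hosts and the longest 39.5%.

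Nascent RNA of hosts was lower under both blockers, with shares close to those of other acH2A.Z genes. In bulk samples fewer cells of a kind and less RNA per cell cannot be told apart. Of 3293 measured hosts, 1907 (57.9%) were lower and 141 (4.28%) higher by at least 2-fold in DRB than in DMSO, beside 54.7% lower and 9.1% higher of all 12121 measured genes. Other genes with acH2A.Z had 58.2% lower and 5.31% higher. In ActD 1712 hosts (52.0%) were lower and 396 (12.03%) higher, beside 50.1% lower and 15.4% higher of all genes. The median log2 ratio of hosts was -1.30 in DRB and -1.08 in ActD, against -1.19 and -1.01 for all measured genes and -1.31 and -1.07 for other acH2A.Z genes. These are CPM ratios over DMSO, and a scaling that left out mitochondrial, ribosomal and polymerase III RNA gave host medians of -0.69 and -0.79 with -0.69 and -0.84 for all genes. With that scaling 1509 hosts were lower and 353 higher in DRB.

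Long hosts had higher ratios in DRB and lower ratios in ActD than short ones. In the shortest group by span the host median log2 ratio was -1.63 in DRB and -0.45 in ActD, and in the longest group -0.59 in DRB and -1.41 in ActD. Other acH2A.Z genes ran the same way, with -1.61 and -0.37 in the shortest and -0.53 and -1.28 in the longest group, in DRB and ActD. Hosts were also split by whether acH2A.Z was called at their members. Where ActD left a call at every member, 10.8% of 2700 measured hosts were higher and 52.6% lower in ActD than in DMSO. Where it left none, 19.2% of 473 were higher and 47.6% lower, beside 15.4% and 50.1% of all measured genes. In DRB the higher share ran the other way, 4.8% of 2625 with a call at every member and 1.84% of 489 with none. The lower shares in DRB were 57.6% and 61.1%, beside 9.1% higher and 54.7% lower of all measured genes. The DRB medians were -1.29 and -1.39. The median DMSO level, with a call at every member and with none, was 24.3 and 15.5 CPM for ActD and 20.4 and 31.0 for DRB. The part of expression level in this comparison was not tested.

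**Figure D5:**
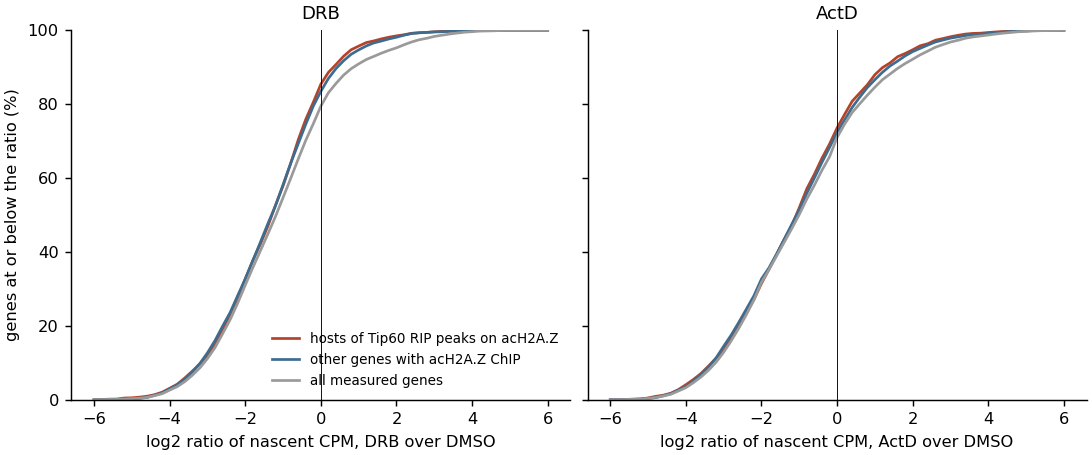
Cumulative share of measured genes, in percent, by log2 ratio of nascent CPM (with 1 CPM added) in DRB (left) and ActD (right) over DMSO, for hosts of Tip60 RIP peaks on acH2A.Z, other genes with acH2A.Z ChIP and all measured genes. The first 2 curves nearly coincide, with medians of -1.30 and -1.31 in DRB and -1.08 and -1.07 in ActD.

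The 10 hosts with most members included 3 with 5 each. GATAD2A, which encodes a subunit of the NuRD remodelling complex, had 84.0 CPM of nascent RNA in DRB, 1.83 in ActD and 71.8 in DMSO. Its log2 ratio was 0.22 in DRB and -4.69 in ActD, so it was low under ActD only. MAP3K5, which encodes a stress-activated kinase, had 28.2 CPM in DRB, 17.3 in ActD and 56.1 in DMSO. PRDM10, which encodes a zinc finger protein, had 13.6 CPM in DRB, 58.1 in ActD and 28.8 in DMSO, below DMSO in DRB and above it in ActD. With 4 members each followed AHRR, ANO6, BCL2, ELF1, GPHN, KANSL1 and LINC00869. Ties were taken in order of symbol, so other hosts with 4 members may be left out. KANSL1, which encodes a scaffold of the NSL acetyltransferase complex, had 68.0 CPM in DRB, 39.5 in ActD and 134 in DMSO. ELF1, an ETS transcription factor gene, had 36.0 CPM in DRB, 18.97 in ActD and 173 in DMSO. Untreated cells had 31.0 CPM at ELF1, far below DMSO, and 134 at KANSL1, the same as DMSO. Of the 10, 3 were lower by at least 2-fold in DRB and 5 in ActD, and 0 were higher, beside 54.7% and 50.1% lower of all measured genes.

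The hosts with the lowest ratios to DMSO had little nascent RNA left under the drug. AURKA, the gene of a mitotic kinase, had 1.26 CPM in DRB, 5.08 in ActD and 198 in DMSO, a log2 ratio of -6.47 in DRB. DPF2, which encodes a BAF complex subunit, CKS2, which encodes a partner of cyclin-dependent kinases, TRIB1 and SQLE, which encodes an enzyme of cholesterol synthesis, had DRB ratios of -5.91 to -5.63. In ActD, SQLE (-5.80), DACH1 (-5.40), SGTA (-5.39), CEP170 (-5.34) and STRN4 (-5.24) were the lowest. SQLE was thus among the lowest in both drugs, with 1.12 CPM in DRB, 0.87 in ActD and 103 in DMSO. DMSO stood above untreated cells at each of these hosts. Untreated cells had 41.6 CPM at AURKA and 20.4 at SQLE. CKS2 had 18.3 CPM untreated and 119 in DMSO, STRN4 46.9 and 136, and SGTA 44.3 and 57.4. The part of a high DMSO level in these ratios was not tested.

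A few hosts had far more counts under a drug than in DMSO. C12orf57 had 2295 counts in DRB, 20 in ActD and 128 in DMSO, a log2 ratio of 4.03 in DRB. The others highest in DRB, NEDD8-MDP1, CPB2-AS1, EMSY-DT and CSE1L-DT, had 188 to 430 counts in DRB and 1 to 9.91 in DMSO. These are a readthrough gene, an antisense gene and divergent transcripts, which overlap or neighbour other genes, so reads counted for them cannot be told apart from those of their partners. In ActD the highest were RPL17-C18orf32, a readthrough gene with 1986 counts in ActD and 0 in DRB and DMSO (158 CPM in ActD, against 153 in untreated cells, so that the zeros carry its ratio), LINC02985 with 1173 in ActD and 14 in DMSO, GJB7 with 470 and 1, GHET1 with 446 and 1, and ZP3 with 1094 and 25.5.

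The share of each gene group that held a member is given beside the 31.3% of all acH2A.Z genes, and no difference between groups was tested. The part of gene span, whose group medians ran over 493 to 35683 bases, was not tested either. Of 59 S-phase replication genes, all with acH2A.Z, 23 (39.0%) were hosts, and 18 of these had the member at the gene start. They included BRCA1, a DNA repair gene with 3 members, ASF1B, a histone chaperone gene, UHRF1, which maintains DNA methylation, and the licensing factor gene CDC6. Of the 23, 13 were lower by at least 2-fold in DRB and 13 in ActD, close to the 54.7% and 50.1% of all measured genes, and none was higher. BRCA1 had 62.7 CPM in DRB, 62.0 in ActD and 158 in DMSO, and ASF1B 4.11 in DRB, 41.5 in ActD and 21.0 in DMSO. Of 25 genes of H2A.Z and the SRCAP and TIP60 complexes found in RefSeq, 10 (40.0%) were hosts, and 4 were lower in DRB and 7 in ActD, beside the same 54.7% and 50.1% of all genes. H2AZ2, one of the genes for H2A.Z itself, had 20.2 CPM in DRB, 166 in ActD and 88.6 in DMSO, INO80, the remodeller ATPase gene, had 45.7, 3.33 and 39.0, and EPC2, a TIP60 complex subunit gene, had 60.3, 14.9 and 75.8 CPM. MORF4L1, which encodes a chromodomain subunit of the same complex, had 42.6 CPM in DRB, 52.9 in ActD and 63.1 in DMSO.

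MYC targets gave 13 hosts, 38.2% of those with acH2A.Z, with 5 of the 13 lower in DRB and 5 in ActD, beside 54.7% and 50.1% of all genes. HSPD1, a mitochondrial chaperone gene, had 257 CPM in DRB, 158 in ActD and 247 in DMSO, and CNBP, which encodes a nucleic acid binding protein, 23.7, 122 and 145 CPM. snoRNA host genes gave 7 hosts (29.2% of those with acH2A.Z). All 6 of these that were measured were lower in DRB, while in ActD 2 were higher and 1 lower, beside the 54.7% lower in DRB and 15.4% higher and 50.1% lower in ActD of all genes. DANCR, one of them, had 0.28 CPM in DRB, 26.03 in ActD and 3.95 in DMSO. Replication-dependent histone genes, whose median span is 493 bases, gave 4 hosts, 9.52% of those with acH2A.Z. H2BC21 had 2071 CPM in DRB, 463 in ActD and 408 in DMSO, and H2AC15 had 30.8, 0.079 and 11.8 CPM in the same order. H2BC15 had 54.6 CPM in DRB, 147 in ActD and 164 in DMSO, so that 2 of the 4 were higher and 1 lower in DRB, and 0 higher and 1 lower in ActD, beside 9.1% higher of all genes in DRB and 15.4% in ActD. H2BC13 had 58.1 CPM in DRB, 48.3 in ActD and 44.8 in DMSO.

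Immediate early and labile genes gave 5 hosts (19.2% of those with acH2A.Z), of which 1 was higher and 4 lower in DRB, and 2 higher and 2 lower in ActD, beside 9.1% higher and 54.7% lower of all genes in DRB and 15.4% and 50.1% in ActD. IER2 was the one higher in DRB, with 36.4 CPM in DRB, 22.2 in ActD and 7.56 in DMSO, while untreated cells had 37.4 CPM, so DMSO was the low library. TNFAIP3, which encodes an inhibitor of NF-kappaB signalling, had 4.95 CPM in DRB, 7.22 in ActD and 22.2 in DMSO. BTG1, an antiproliferative gene, had 0 counts in DRB, 1.35 CPM in ActD and 5.89 in DMSO. SGK1, a kinase gene of this group, had 0.21 CPM in DRB, 47.4 in ActD and 2.01 in DMSO. Myeloid transcription factor genes gave 4 hosts (28.6% of those with acH2A.Z), FLI1, GATA2, LMO2 and MYB. All 4 were lower in both drugs, beside 54.7% of all genes in DRB and 50.1% in ActD. MYB, needed for blood progenitors, had 207 CPM in DRB, 217 in ActD and 595 in DMSO, and GATA2 1.60, 0.63 and 52.8 CPM. Promyelocyte granule genes gave 2 hosts, HEXA and NKG7, and lymphoid and epithelial markers gave none. Nuclear long non-coding RNAs gave 6 hosts (40.0% of those with acH2A.Z), among them MALAT1 with 6640 CPM in DRB, 4531 in ActD and 6519 in DMSO. MYC, KAT5, H2AZ1, MPO and NEAT1 carried acH2A.Z ChIP in DMSO cells but held no member. MYC itself had 1.12 CPM in DRB, 34.8 in ActD and 153 in DMSO.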

How the data were processed

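Peaks came from the deposited HOMER lists of the acH2A.Z and H2A.Z ChIP and of the 3 RIP libraries. Per the file headers each peak has a normalized tag count (a signal value), a score, raw tags, a fold relative to a control that is not named, and the p-value for that fold. In the deposited lists every fold was 4 or more and every p-value 0.0001 or less. The authors called peaks per library, and in 3 of 13 lists (siMyc acH2A.Z among them) the control was scaled to the immunoprecipitation, in the others the reverse. Tags are taken as per 10000000, HOMER's default, which the headers do not state. Per the submitters' processing notes the build was GRCh38 and the tools included STAR 2.5.2b, HOMER, cutadapt, Trim Galore and FastQC. Peaks carry no usable strand. Gene tables deposited by the authors give expected counts per the file headers; the strand setting is not given in the sources used here.

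Expected counts were converted to CPM, genes were kept at a mean of 1 CPM and 20 summed counts over DRB, ActD and DMSO, and log2 ratios used a pseudocount of 1 CPM and a threshold of 2-fold, so they understate changes of low genes. The moved peaks were placed once, with no random draw, and those past a chromosome's last feature were dropped. A host gene has a span sharing a base with a member or a start within 1 kb; 38066 of 56738 RefSeq genes (67.1%) matched a table row by symbol. The reference has no exons, so exons and introns were not separated as had been planned. Shares carry exact (Clopper-Pearson) 95% intervals. Work was done in Python 3.11.15 with pandas 2.3.3 and scipy 1.17.1, and the overlap and ratio steps were checked on simulated data. IgG and input libraries were not used here.

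The members, gene groups and named genes were chosen with earlier results of these data known. Named members are the 10 with most RIP tags, the 5 with most tags among those called in none of DRB, ActD and siMyc, and those at the edge of the rule. Named genes are their hosts, the 10 hosts with most members (ties in order of symbol), up to 4 hosts per group, and 7 fixed genes. They also include the 5 highest and 5 lowest ratios per drug among hosts with at least 100 summed counts. One named member and its host are not reported here. Promoters shown are those inside a member with most RIP tags per class, leaving out unnamed loci and chromosome 8.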

Additional observations from a re-analysis of the deposited data

How the results depend on the processing

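No paired analysis was possible because each group is 1 library. For the same reason no replicate could be left out. The number of members, 3886 to 5604 over its 5 alternatives, stayed within 1.5 times, and the ratio to the moved share moved outside its interval only with Tip60 peaks of a fold of at least 8 (1.07). Not excluding H2A.Z RIP peaks, and leaving out chromosomes 8 and 18 (chosen after seeing the data), left the results on acH2A.Z calls within their intervals. The shares with an acH2A.Z peak moved as follows, and where a setting changed the members the share is of those it left. With at least 50% of the RIP peak shared they were 79.0% in DRB, 30.9% in siMyc and 51.8% in siNTC. With ChIP folds of at least 8 they were 76.1% in DRB, 67.2% in ActD, 8.39% in siMyc and 31.3% in siNTC. With the 14264 highest-scoring peaks of each list they were 47.5% in DRB, 49.9% in ActD and 56.0% in siNTC, so the order of the lists changed. Per DMSO peak they were 97.3%, 88.5%, 59.5% and 82.7% in DRB, ActD, siMyc and siNTC, and with a siNTC peak required 52.9% in siMyc. At gene starts, in genes and between genes lay 43.6%, 32.1% and 24.3% with protein-coding genes only, and 14.9%, 62.9% and 22.2% with starts of 100 bases either side. Host median log2 ratios in DRB and ActD were -1.42 and -1.18 with 0.1 CPM added, -0.89 and -0.78 with 5 CPM added (85 hosts higher in DRB), and -1.16 and -0.95 without the filter. They were -0.12 and -0.074 centred on the median gene, with 623 hosts higher and 917 lower in DRB, and 878 higher and 1031 lower in ActD. With totals without mitochondrial, ribosomal and polymerase III RNA they were -0.69 and -0.79, with 353 hosts higher in DRB, and the median levels were 44.1 CPM untreated and 40.4 in DMSO, against 20.9 and 22.4. With hosts by gene start only, 87 were higher in DRB, and 252 higher and 1102 lower in ActD, since fewer genes are counted. The cause of the other moves was not tested. Exon overlap of hosts could not be run. Peak calls depend on depth and scaling of each library, which set the limit for comparing lists.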

Other observations

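Of 1461 miRNA hairpins on chromosomes 1 to 22 in RefSeq, 15 shared a base with a member, in 14 members. MIR191 and MIR425 lay in the same member on chromosome 3, which had a RIP tag count of 4.20. The hairpins at members of highest tag count were MIR6831 (27.6), MIR4449 (22.5) and MIR6833 (17.6).

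Chromosome 7 had the highest ratio of the share as found to the moved share, 1.39 (1.99% and 1.43%), and chromosome 21 the lowest, 0.885. Chromosome 18 held 3.69% of members, 5.48% of all Tip60 RIP peaks and 2.0% of DMSO acH2A.Z peaks.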
